A study of Mus musculus with 16 samples.

Results

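Group 2 innate lymphoid cells (ILC2s) that had received IL-33 together with the neuropeptide calcitonin gene–related peptide (CGRP) were compared with ILC2s left in IL-7, the basal condition of the experiment. The comparison rested on 8 of the 16 bulk mRNA-Seq libraries of the series. It asked how far cells with CGRP remained from the basal state. The 8 libraries were chosen by their labelled treatment, 4 against 4, and each treatment held 2 WT and 2 *Pac1-/-* libraries. The 4 libraries with IL-33 and no CGRP were used only to set values side by side, and the 4 libraries with neuromedin U were not compared.

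All libraries came from lung ILC2s of mice on the C57BL/6J background, 6 to 8 weeks old per the study's methods. The *Pac1-/-* mice lack the phosphatase encoded by *Dusp2* in every cell, so the genotype is not restricted to ILC2s. The basal group received IL-7 at 100 ng/mL. The CGRP group received the same IL-7 with IL-33 at 100 ng/mL and CGRP at 500 ng/mL, so it differed from the basal group by 2 added agents, and the share of each in a difference cannot be told apart in this comparison alone. Treatment lasted 4 hours in both groups. According to the culture methods the sorted cells had first been expanded in IL-2 and IL-7, so the basal group holds cultured cells and not cells fresh from the lung. About 500 cells entered each library. Whether the 2 libraries of a group came from separate mice is not stated in the sources used here, so p-values measure the spread between these libraries, which may be technical.

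ILC2s are tissue-resident lymphocytes without an antigen receptor, and in the lung they respond to epithelial alarmins such as IL-33 with type 2 cytokines. CGRP is released by sensory nerves and neuroendocrine cells and binds a receptor built from the G protein–coupled subunit encoded by *Calcrl* and the accessory subunit encoded by *Ramp1*. This receptor raises cAMP, which activates protein kinase A and transcription factors of the CREB family, and CREB binds a short DNA element in the promoters of many early response genes.

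The total count was 11172216 to 15963357 in the 4 IL-7 libraries and 8333920 to 12366516 in the 4 CGRP libraries, and the 2 *Pac1-/-* CGRP libraries were among the 3 shallowest of the 8. Levels are given as CPM, the count of a gene scaled to a library total of 1000000, not per gene length, and are compared between libraries only. Per-library values follow the order WT replicate 1, WT replicate 2, *Pac1-/-* replicate 1 and *Pac1-/-* replicate 2. *Dusp2* (ENSMUSG00000027368, chromosome 2, 127336159 to 127338376, GRCm38) had 57 counts, or 5.10 CPM, in WT replicate 2 with IL-7 and 0 counts in the other 7 libraries, WT libraries with CGRP included. At this depth the targeted gene therefore does not check the genotype labels. The 10 ILC2 markers summed to 10083 to 10575 CPM with IL-7 and 13856 to 15851 CPM with CGRP. The largest part was the cytokine gene *Il5*, with means of 5532 and 8912 CPM. The means of *Rora* were 1011 and 1605 CPM, those of *Gata3* 604 and 637 CPM and those of *Klrg1* 912 and 572 CPM. The sum therefore does not measure the share of ILC2s. Among the 7 T cell markers *Cd8a* was at 0 in all 8 libraries, *Cd4* had 5 counts in 1 library and *Cd5* at most 1 count, while *Cd3d* and *Cd3g* were detected in all. The 4 B cell markers summed to 6.64 to 40.5 CPM with IL-7, to 32.2 and 73.0 CPM in the WT CGRP libraries and to 261 and 260.5 CPM in the *Pac1-/-* CGRP libraries. These libraries are bulk samples, so fewer cells of a type and less RNA per cell cannot be told apart.

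Of 13240 genes tested, 161 rose and 114 fell with IL-33 plus CGRP (fold above 1.5 and adjusted p under 0.05, edgeR's quasi-likelihood test, adjusted by the Benjamini-Hochberg method over all genes tested). This amounts to 1.22% of the genes in the higher direction and 0.861% in the lower direction, and the median log2 fold change over all genes was 0.00. Over the genes tested, a library's median correlation in log2 level with others of its treatment was 0.816 to 0.820 for IL-7 libraries. For CGRP libraries it was 0.737 to 0.762, beside 0.721 to 0.762 with the IL-7 libraries. By this measure CGRP libraries were about as close to IL-7 libraries as to each other. The median fold of the genes that rose was 3.09, and 69 of them were above 4-fold. The median fold of the genes that fell was 2.38, and 22 were above 4-fold. The 4 CGRP libraries lay outside the range of the 4 IL-7 libraries for 156 of the 161 and for all 114, beside 6.03% of all genes tested with all CGRP libraries above and 6.48% with all below. The exceptions were *Stab2*, *Ccl4*, *Trdv4*, *Igkv8-21* and *Spty2d1*. The 161 and 114 genes were called on these same libraries, so their separation largely follows from the call and is no further support. The shares of all genes given in this paragraph are the background for the counts of each gene list below. Leaving out 1 library at a time gave 106 to 159 genes higher and 57 to 139 lower. The lower count fell by over 1.5 times without WT IL-7 replicate 1 (60 genes), *Pac1-/-* IL-7 replicate 1 (57 genes), *Pac1-/-* IL-7 replicate 2 (64 genes, with 106 higher), *Pac1-/-* CGRP replicate 1 (74 genes) and *Pac1-/-* CGRP replicate 2 (71 genes).

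**Figure D1:**
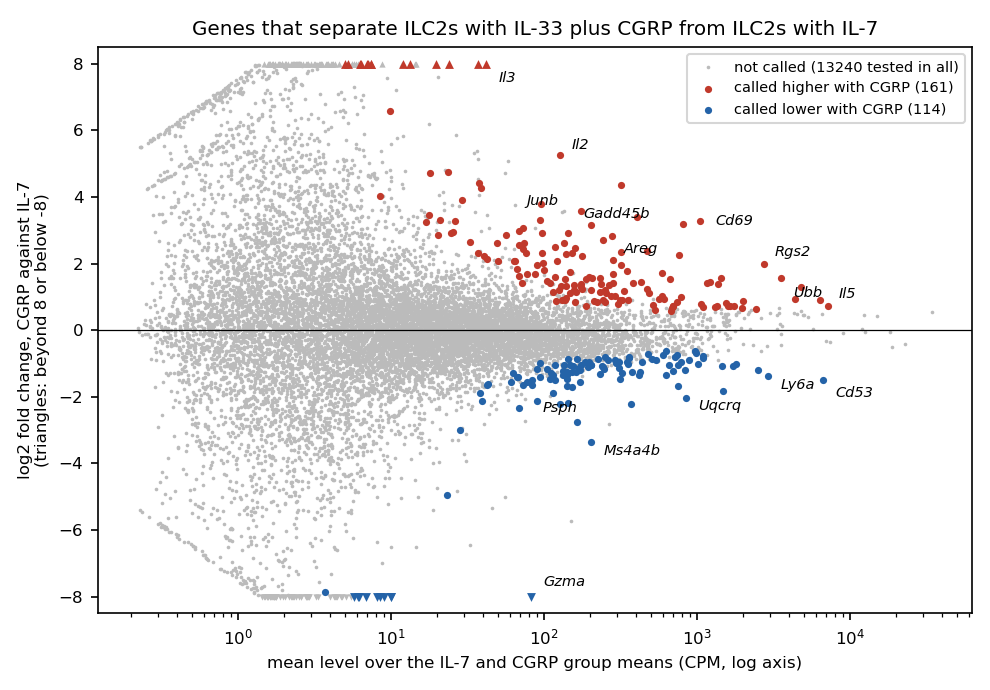
Log2 fold change of CGRP against IL-7 (vertical axis) against the mean of the 2 group means in CPM (horizontal log axis) for the 13240 genes tested, 1 point per gene, with the 161 genes called higher in red and the 114 called lower in blue and triangles for genes beyond the plotted range. The called genes reach from low levels, such as *Il3* with 0 counts in all IL-7 libraries, to *Cd53*, which had a mean of 9986 CPM with IL-7.

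Among the 12 genes of smallest p that rose were *Rgs2*, *Spry2* and *Map3k8*. *Rgs2*, which shortens G protein signaling, stood at 1095, 1096, 1157 and 1152 CPM with IL-7 and at 3586, 3644, 5834 and 4567 CPM with CGRP. The lowest CGRP library was above 3 times the highest IL-7 library, and the log2 fold change was 1.98 ± 0.12 (SE, edgeR adjusted p = 0.000218). *Spry2*, an inhibitor of receptor signaling to ERK, had 84.9, 110.5, 113 and 108 CPM with IL-7 and 416, 422, 556 and 737 CPM with CGRP (log2 fold change 2.36 ± 0.17, edgeR adjusted p = 0.000567). *Map3k8*, a kinase that links NF-kB signaling to ERK, had 70.7, 56.4, 78.5 and 57.8 CPM with IL-7 and 484, 363, 370.2 and 474 CPM with CGRP (log2 fold change 2.72 ± 0.21, edgeR adjusted p = 0.000757). For all 3 genes the groups were apart in both genotypes. By the same ranking on the smallest p, *Ubb* (a ubiquitin gene, log2 fold change 1.56 ± 0.09), *Rgcc* (a cell cycle regulator, 2.38 ± 0.14), *Junb* (an AP-1 subunit, 3.58 ± 0.21) and *Tiparp* (a mono-ADP-ribosyltransferase, 3.40 ± 0.24) also belonged to the 12. The other 5 were *2310001H17Rik*, *1810026B05Rik*, *2410006H16Rik*, the small nuclear RNA gene *Gm24265* and an immunoglobulin kappa variable segment, for which reads shared with overlapping or near-identical genes are uncertain.

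The cytokine transcripts that passed the test all rose. Of 21 genes on a list of secreted cytokines, 18 had enough counts to be tested, 6 rose (33.3%) and 0 fell, and the median log2 fold change was 0.73. The log2 fold change was above 0 in 10 of the 18, and DESeq2 and the fit of all 16 libraries each called 1 lower. With both *Pac1-/-* CGRP libraries left out, 0 rose, and with both WT CGRP libraries left out, 1 rose and 1 fell. In such fits, also given for lists below, genotype stays a covariate. They therefore compare 2 CGRP libraries with the IL-7 libraries of the same genotype and hold fewer libraries than the main fit. *Il3*, a growth factor for basophils and mast cells, had 0 counts in all 4 IL-7 libraries and 121, 108, 76.4 and 30.8 CPM with CGRP. Against a floor of 3 counts per IL-7 library it was at least 357-fold higher (edgeR adjusted p = 0.00379). *Il2*, a growth factor for lymphocytes, had 5.45, 1.43, 6.94 and 16.9 CPM with IL-7 and 270.2, 209.6, 272 and 232 CPM with CGRP. Its groups were far apart, with a log2 fold change of 5.26 ± 0.61 (edgeR adjusted p = 0.00555). *Areg*, which encodes the epithelial repair factor amphiregulin, had 78.0, 132, 114 and 112 CPM with IL-7 and 427, 466, 461 and 492 CPM with CGRP. The spread within each group was small beside the difference, and the log2 fold change was 2.12 ± 0.17 (edgeR adjusted p = 0.000929).

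Several of these cytokine genes lie within 1 stretch of chromosome 11. *Il4* (53602982 to 53618669) had 21.2, 25.8, 16.4 and 36.4 CPM with IL-7 and 132, 118, 83.8 and 83.8 CPM with CGRP, a log2 fold change of 2.08 ± 0.32 (edgeR adjusted p = 0.0170). *Il5* (53720794 to 53725106), the eosinophil growth factor, had 5687, 5125, 5474 and 5843 CPM with IL-7 and 8615, 9749, 9212 and 8073 CPM with CGRP, a smaller change of 0.72 ± 0.08 on the log2 scale (edgeR adjusted p = 0.00548). *Csf2* (54247271 to 54249667), which encodes GM-CSF, had 1388, 1168, 1233 and 1102 CPM with IL-7 and 2041, 1750.0, 2232 and 1935 CPM with CGRP. Its log2 fold change was 0.73 ± 0.12 (edgeR adjusted p = 0.0234), and without *Pac1-/-* IL-7 replicate 2 the adjusted p was 0.0587. *Il13* (53631324 to 53634702), which encodes the cytokine most tied to airway mucus, had 21.5, 5.37, 10.4 and 17.2 CPM with IL-7 and 6.06, 13.6, 8.71 and 4.68 CPM with CGRP. Its groups overlapped (*Il13* log2 fold change -0.73 ± 0.69, edgeR adjusted p = 0.755). *Il3* lies on the same stretch (54265303 to 54267277), so 4 of these 5 genes rose and *Il13* was not called. Mast cells and basophils can also express *Il3* and *Il4*, and the 4 markers of these cells summed to 26.0 to 61.3 CPM with IL-7 and 76.4 to 177 CPM with CGRP. Most of this was *Cpa3*, and *Mcpt8* was at 0 in all 8 libraries. The part of these cells in the cytokine values was not tested.

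**Figure D2:**
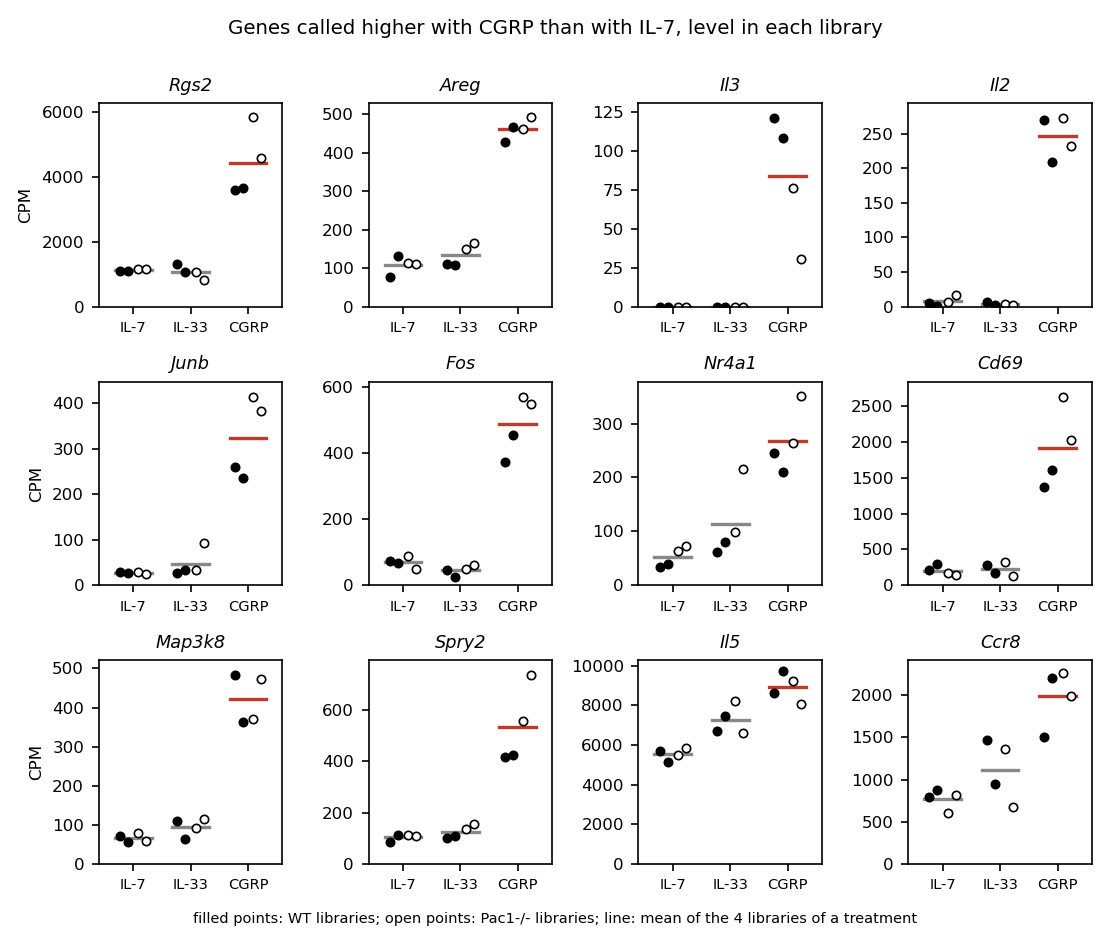
Level in CPM (vertical axis, from 0) of 12 genes called higher with CGRP, in each library with IL-7, IL-33 and IL-33 plus CGRP, with WT libraries filled, *Pac1-/-* libraries open and a line at the mean of 4 libraries. In each panel all 4 CGRP libraries lie above all 4 IL-7 libraries, as for *Areg* at 427 to 492 CPM against 78.0 to 132 CPM.

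*Il9*, which encodes a mast cell growth factor, went the other way without passing the test. It had 279, 276, 291 and 310.2 CPM with IL-7 and 34.6, 14.0, 0.783 and 0.240 CPM with CGRP. The groups did not overlap, but the spread among the CGRP libraries was wide (*Il9* log2 fold change -5.74 ± 1.22, edgeR adjusted p = 0.0593), and the gene was called when any 1 of 5 libraries was left out. Levels in the *Pac1-/-* CGRP libraries were below those in the WT CGRP libraries, and the test of that difference between genotypes gave an adjusted p of 0.481 in edgeR.

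Among chemokines, 13 genes were listed, 9 were tested, and 3 rose with none falling, with a median log2 fold change of 1.43. The number that rose was 1 without the genotype covariate or with all 16 libraries in 1 fit, and 0 with both *Pac1-/-* CGRP libraries left out, and 2 fell in DESeq2 and with all 16 libraries. *Cxcl2*, a neutrophil attractant, had 373, 291, 184 and 229.7 CPM with IL-7 and 912, 1087, 1647 and 1400.3 CPM with CGRP (log2 fold change 2.27 ± 0.27, edgeR adjusted p = 0.00643). *Ccl1*, the ligand of CCR8, had 1025, 887, 381 and 425 CPM with IL-7 and 1796, 1792, 1563 and 1410.3 CPM with CGRP (log2 fold change 1.43 ± 0.20, edgeR adjusted p = 0.0105). The groups of both genes were apart, and within the IL-7 group the *Pac1-/-* libraries were the lower ones. *Ccl4*, a macrophage and NK cell attractant, was called from the *Pac1-/-* libraries alone: it had 0 counts in all IL-7 and both WT CGRP libraries and 80.8 and 113 CPM in the *Pac1-/-* CGRP libraries. Its call was lost without either of these (highest edgeR adjusted p = 0.0758). *Ccl5*, a T cell attractant, had 467, 328, 524 and 469 CPM with IL-7 and 148, 151, 31.997 and 18.2 CPM with CGRP, apart but not past the test (log2 fold change -2.82 ± 0.63, edgeR adjusted p = 0.0671).

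Early response transcription factors made up a large group among the genes that rose. These genes are switched on within minutes of a signal and need no new protein synthesis. Of 24 listed genes 22 were tested, 11 rose (50%) and 1 fell (4.55%), and the median log2 fold change was 1.80. With both *Pac1-/-* CGRP libraries left out, 2 of these genes rose, and with both WT CGRP libraries left out, 8. *Junb* had 28.9, 25.8, 28.5 and 24.5 CPM with IL-7 and 259, 237, 415 and 384 CPM with CGRP. *Fos*, its AP-1 partner, had 74.5, 68.2, 88.4 and 47.7 CPM with IL-7 and 372, 456, 571 and 549 CPM with CGRP (log2 fold change 2.81 ± 0.23, edgeR adjusted p = 0.00106). In both genes every CGRP library was above every IL-7 library by a wide margin. *Jun* (log2 fold change 3.26 ± 0.40), *Fosb* (2.93 ± 0.35) and *Fosl2* (1.45 ± 0.12), further AP-1 subunits, rose as well, as did the stress factor *Atf3* (2.93 ± 0.41).

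The orphan nuclear receptors *Nr4a1*, *Nr4a2* and *Nr4a3*, which mark recent signaling in lymphocytes, all rose. *Nr4a1* had 33.5, 39.4, 62.7 and 72.7 CPM with IL-7 and 245, 211, 265 and 351 CPM with CGRP (log2 fold change 2.45 ± 0.20, edgeR adjusted p = 0.000922). The log2 fold changes of *Nr4a2* and *Nr4a3* were 2.50 ± 0.20 and 2.29 ± 0.23. *Ier2* (2.31 ± 0.25) and *Klf6* (1.40 ± 0.23) completed the 11. *Egr1* had 2.005, 5.55, 10.2 and 14.0 CPM with IL-7 and 16.3, 33.9, 14.5 and 20.4 CPM with CGRP, which did not pass the test (edgeR adjusted p = 0.320). *Batf*, an AP-1 factor used in lymphocyte effector programs, fell. It had 149, 144, 148 and 113 CPM with IL-7 and 29.5, 66.7, 62.1 and 45.8 CPM with CGRP (log2 fold change -1.42 ± 0.28, edgeR adjusted p = 0.0460). The *Batf* call was lost when any of 6 libraries was left out, with an adjusted p of up to 0.119.

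The promoters of genes that rose are shown because CREB, the factor downstream of cAMP, binds the element TGACGTCA. The search covered the 250 bases before the gene start in RefSeq promoter windows of GRCm38.p6, on both strands, and TGACG, the short form of the element, was searched too and lies within every full match. The full element was found in 8 of 109 higher genes with a window (7.34%), in 3 of 89 lower genes (3.37%), in 276 of 8955 tested genes (3.08%) and in 1.77% of all genes with a window. The 8 genes were *Areg*, *Arl5b*, *Btg2*, *Dusp1*, *Ppp1r15a*, *Rpl13*, *Rpl27a* and *Rps9*. The short form was found in 50 of the 109 (45.9%), 29 of the 89 (32.6%), 31.3% of tested genes and 19.8% of all genes. A match is a description of the letters and does not show binding. In the following windows, written 5′ to 3′ on the strand of the gene, capitals mark the full element:
*Areg*, chr5:91139349-91139598, plus strand: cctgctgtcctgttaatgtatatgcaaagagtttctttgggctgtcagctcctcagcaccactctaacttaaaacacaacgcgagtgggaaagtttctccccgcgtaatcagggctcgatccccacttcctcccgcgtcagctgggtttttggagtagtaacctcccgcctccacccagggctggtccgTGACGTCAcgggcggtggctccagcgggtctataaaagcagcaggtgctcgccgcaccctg
*Dusp1*, chr17:26508473-26508722, minus strand: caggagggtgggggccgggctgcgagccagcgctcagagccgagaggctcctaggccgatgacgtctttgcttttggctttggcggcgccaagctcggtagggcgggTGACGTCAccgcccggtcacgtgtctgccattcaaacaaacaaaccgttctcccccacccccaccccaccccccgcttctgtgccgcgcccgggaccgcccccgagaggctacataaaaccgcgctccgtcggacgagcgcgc
*Btg2*, chr1:134079156-134079405, minus strand: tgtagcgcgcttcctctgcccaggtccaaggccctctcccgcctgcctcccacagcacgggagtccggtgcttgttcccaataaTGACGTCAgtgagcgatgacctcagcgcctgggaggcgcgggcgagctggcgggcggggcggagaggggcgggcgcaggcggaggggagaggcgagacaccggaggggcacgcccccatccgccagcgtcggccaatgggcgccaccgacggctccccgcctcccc
*Ppp1r15a*, chr7:45526269-45526518, minus strand: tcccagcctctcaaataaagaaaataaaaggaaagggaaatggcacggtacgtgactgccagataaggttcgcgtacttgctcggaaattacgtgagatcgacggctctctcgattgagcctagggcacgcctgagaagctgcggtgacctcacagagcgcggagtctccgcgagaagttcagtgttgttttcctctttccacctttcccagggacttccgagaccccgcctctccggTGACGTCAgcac

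In *Areg* the element began 61 bases before the gene start, in *Dusp1* 143, in *Btg2* 166 and in *Ppp1r15a* 12. All 4 genes rose, by log2 fold changes of 2.12 ± 0.17, 2.55 ± 0.23, 2.62 ± 0.23 and 3.07 ± 0.34. Of 8 listed early response factors with a window that did not rise, 1 held the full element and 5 the short form. None of the 10 early response factors that rose and had a window held the full element, and 7 of the 10 held the short form. The windows of *Fos* and *Nr4a1* are shown for this difference, with the short form or its reverse complement CGTCA in capitals:
*Fos*, chr12:85473640-85473889, plus strand: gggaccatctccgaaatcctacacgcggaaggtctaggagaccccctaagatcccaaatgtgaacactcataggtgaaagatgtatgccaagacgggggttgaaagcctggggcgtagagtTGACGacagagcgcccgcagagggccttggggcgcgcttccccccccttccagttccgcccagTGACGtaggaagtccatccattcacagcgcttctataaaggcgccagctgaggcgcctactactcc
*Nr4a1*, chr15:101266596-101266845, plus strand: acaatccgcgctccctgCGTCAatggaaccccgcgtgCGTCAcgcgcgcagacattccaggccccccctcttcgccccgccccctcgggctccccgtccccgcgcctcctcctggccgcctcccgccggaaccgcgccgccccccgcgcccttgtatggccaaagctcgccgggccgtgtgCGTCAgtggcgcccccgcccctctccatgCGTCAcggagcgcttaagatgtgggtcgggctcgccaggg

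In *Fos* there were 2 matches, at 129 and 66 bases before the gene start, and in *Nr4a1* 4 matches, at 233, 213, 69 and 40 bases.

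Some feedback inhibitors of MAP kinase signaling rose too. Of 14 listed genes 11 were tested and 4 rose, with none falling and a median log2 fold change of 1.70. With both *Pac1-/-* CGRP libraries left out 1 rose. *Dusp1*, a nuclear phosphatase for p38 and JNK, had 15.9, 13.8, 30.9 and 22.5 CPM with IL-7 and 94.8, 96.8, 138 and 136 CPM with CGRP (edgeR adjusted p = 0.00161). *Dusp5*, a phosphatase for ERK, had 39.0, 52.0, 37.6 and 40.3 CPM with IL-7 and 129, 111, 160.2 and 137 CPM with CGRP (log2 fold change 1.70 ± 0.21, edgeR adjusted p = 0.00645). Both genes were apart between the groups by more than the spread within them. *Spry1* had 2.51, 1.16, 0.418 and 1.33 CPM with IL-7 and 13.1, 39.3, 43.2 and 43.6 CPM with CGRP (log2 fold change 4.73 ± 0.78, edgeR adjusted p = 0.0226), and its call was lost without *Pac1-/-* IL-7 replicate 2 or WT CGRP replicate 2 (adjusted p up to 0.0582).

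Of 20 NF-kB subunits and feedback genes, all tested, 5 rose and 0 fell, with a median log2 fold change of 0.59. With both *Pac1-/-* CGRP libraries left out 0 rose, and with both WT CGRP libraries left out 5. The inhibitor *Nfkbia* had 853, 743, 631 and 696 CPM with IL-7 and 1558, 1753, 3047 and 2267 CPM with CGRP (log2 fold change 1.56 ± 0.20, edgeR adjusted p = 0.00818). The subunit *Rel* had 65.7, 89.1, 29.9 and 37.9 CPM with IL-7 and 237, 171, 297 and 299 CPM with CGRP (log2 fold change 2.30 ± 0.37, edgeR adjusted p = 0.0216). Neither gene overlapped between the groups, and the distance was larger in the *Pac1-/-* libraries for both, by an amount that the test of the genotype difference did not call (edgeR adjusted p = 0.723 for each). *Nfkbiz*, an atypical inhibitor (1.78 ± 0.18), the deubiquitinase *Tnfaip3* (1.23 ± 0.15) and *Map3k8* made up the 5. *Nfkb1* had a log2 fold change of 0.20 and an adjusted p of 0.711 in edgeR, and *Rela*, *Relb* and *Nfkb2* were not called either.

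On the list of the CGRP and cAMP pathway, 37 genes long, 34 were tested, 4 rose and 0 fell, and the median log2 fold change was 0.38. With both *Pac1-/-* CGRP libraries left out 2 rose. The 4 that rose were signal dampers and adaptors: *Rgs2*, the related *Rgs1*, the cAMP-degrading phosphodiesterase *Pde4b* and the LIM-domain cofactor *Lmo4*. *Rgs1* had 839.5, 754, 466 and 626 CPM with IL-7 and 1462, 1751, 1997 and 1859 CPM with CGRP (log2 fold change 1.45 ± 0.18, edgeR adjusted p = 0.00726). *Lmo4* had 300.3, 318, 414 and 353 CPM with IL-7 and 971, 1104, 983 and 881 CPM with CGRP (log2 fold change 1.54 ± 0.14, edgeR adjusted p = 0.00161). The groups of these genes did not overlap. *Pde4b* had 22.2, 40.5, 45.7 and 46.7 CPM with IL-7 and 73.4, 66.3, 169 and 115 CPM with CGRP (edgeR adjusted p = 0.0339), and its call was lost when any of 7 libraries was left out (adjusted p up to 0.123). *Sik1*, a kinase induced by cAMP, was apart between the groups at a log2 fold change of 1.98 ± 0.41 but missed the test (edgeR adjusted p = 0.0543).

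Neither receptor subunit was called. *Calcrl* had 67.9, 77.2, 55.4 and 57.8 CPM with IL-7 and 73.2, 66.8, 62.6 and 88.1 CPM with CGRP. *Ramp1* had 166, 141, 202 and 141 CPM with IL-7 and 202, 153, 249 and 351 CPM with CGRP. Both overlapped between the groups, with log2 fold changes of 0.22 ± 0.23 and 0.54 ± 0.23 (edgeR adjusted p = 0.785 and 0.310). *Crem*, a cAMP-responsive repressor and activator, had 4399, 4791, 4729 and 4830.5 CPM with IL-7 and 5957, 6901, 5976 and 5177 CPM with CGRP, a log2 fold change of 0.38 ± 0.09 that did not pass (edgeR adjusted p = 0.0721).

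A further list held 16 genes, though not all, that the study names in connection with CGRP and ILC2s. Several of them were named from these libraries, so this list is not independent evidence of a direction. Of the 15 tested, 2 rose (*Atf3* and *Lmo4*) and 0 fell, with a median log2 fold change of 0.22. *Calca*, which encodes CGRP itself, had 6055, 5570.3, 5549.6 and 5732 CPM with IL-7 and 6739, 7384, 4888 and 4301 CPM with CGRP. The WT CGRP libraries were above and the *Pac1-/-* CGRP libraries below all IL-7 libraries, and the log2 fold change over both genotypes was 0.02 ± 0.13. The same arrangement held for *Tnfrsf9*, which encodes the co-stimulatory receptor 4-1BB, except that *Pac1-/-* CGRP replicate 1 lay within the IL-7 range, with 1186, 1107, 1112 and 1362 CPM against 1514, 1898, 1142 and 777 CPM. For *Il6* the WT CGRP libraries were at 84.9 and 28.2 CPM and the *Pac1-/-* CGRP libraries at 419 and 434 CPM, against 246, 228, 494 and 358 CPM with IL-7. The difference between genotypes in the distance from the basal level was not called for any of the 3 (edgeR adjusted p = 0.723 for each).

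Genes tied to ILC2 identity differed in both directions. Of 23 listed genes 22 were tested, 3 rose and 1 fell. The CGRP libraries were all above the IL-7 libraries for 6 of the 22 and all below for 4, beside 6.03% and 6.48% of all genes tested. The median log2 fold change was 0.05. *Gata3*, the master transcription factor of the lineage, had 514, 581, 689 and 632 CPM with IL-7 and 677, 647, 610.2 and 615 CPM with CGRP, and the ranges overlapped (log2 fold change 0.12 ± 0.12, edgeR adjusted p = 0.799). *Rora*, a nuclear receptor needed for ILC2 development, rose from 998, 1139, 938 and 969 CPM to 1639, 1586, 1551 and 1644 CPM (log2 fold change 0.70 ± 0.09, edgeR adjusted p = 0.00718). *Arg1*, which encodes arginase, rose from 227, 147, 113 and 146 CPM to 331, 401, 469 and 432 CPM (edgeR adjusted p = 0.0226). *Nfil3*, a factor of early ILC development, rose by 2.63 ± 0.43 on the log2 scale (edgeR adjusted p = 0.0230). *Ly6a*, which encodes the surface marker SCA-1, fell from 4406, 3481, 4588 and 4609 CPM to 1899.6, 1553, 1368 and 1574 CPM (log2 fold change -1.38 ± 0.15, edgeR adjusted p = 0.00463). *Il1rl1*, the IL-33 receptor gene, had 792, 933, 745 and 756 CPM with IL-7 and 1071, 1219, 964 and 1095 CPM with CGRP, apart between the groups at a log2 fold change of 0.47 ± 0.10 but short of the test (edgeR adjusted p = 0.0595).

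Of 17 genes for costimulation and activation at the surface, 15 were tested and only *Cd69* was called. *Cd69*, an early activation antigen that holds lymphocytes in tissue, had 209, 289, 168 and 142 CPM with IL-7 and 1374, 1611, 2631 and 2031 CPM with CGRP (log2 fold change 3.28 ± 0.29, edgeR adjusted p = 0.00145). The whole list had a median log2 fold change of -0.21. *Klrg1* and *Il2ra*, receptors used to mark ILC2s, were lower with CGRP in every library without passing the test (edgeR adjusted p = 0.0827 and 0.0584). Of 9 STAT5 targets and feedback genes, all tested, *Cish* and *Socs2* rose, with log2 fold changes of 1.82 ± 0.32 and 1.31 ± 0.19. Both inhibit cytokine receptor signaling, and *Cish* lost its call when any of 4 *Pac1-/-* libraries was left out (edgeR adjusted p up to 0.0838). Of 19 genes for quiescence and trafficking, all tested, the antiproliferative gene *Btg2* and the chemokine receptor gene *Ccr8* rose and 0 fell. *Ccr8*, whose ligand gene *Ccl1* also rose, had 797, 879.6, 598 and 820.0 CPM with IL-7 and 1504, 2205, 2263 and 1988 CPM with CGRP (log2 fold change 1.40 ± 0.16, edgeR adjusted p = 0.00491).

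**Figure D3:**
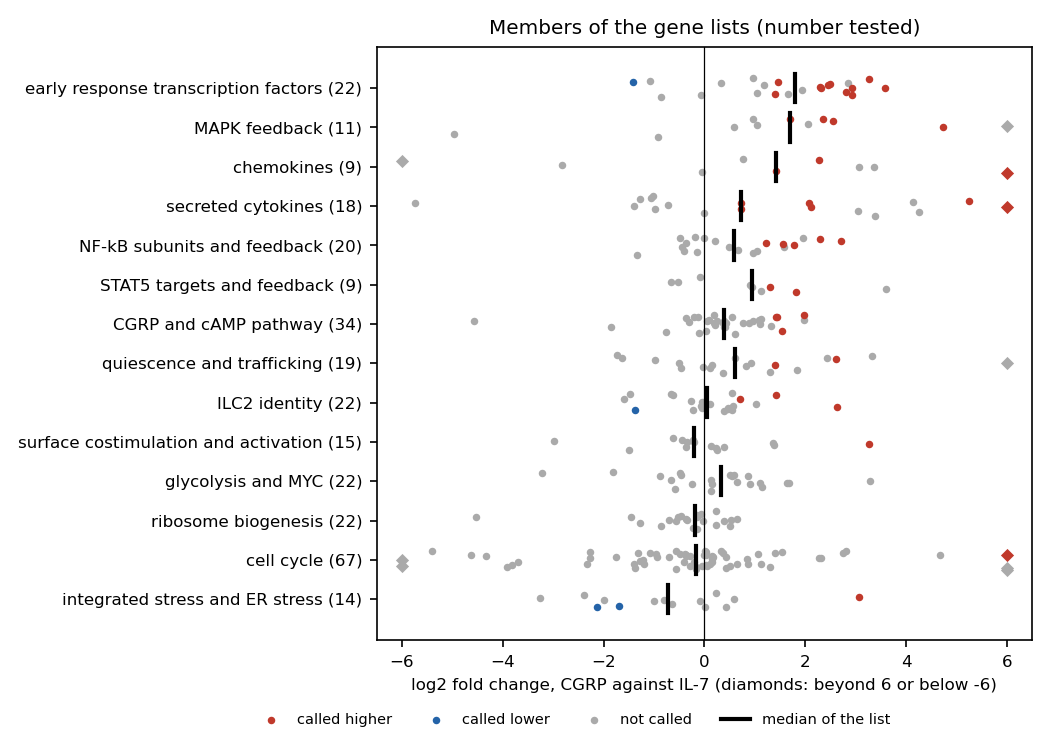
Log2 fold change of CGRP against IL-7 (horizontal axis) for each tested member of 14 gene lists, with called genes colored, diamonds for genes beyond the plotted range and a bar at each list's median. The medians run from 1.80 for the early response transcription factors to -0.72 for the integrated stress and ER stress genes, beside 0.00 over all genes tested.

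Genes that fell included receptors and effectors of lymphocytes. *Gzma*, which encodes a granule protease, had 105, 127, 213 and 212 CPM with IL-7 and 0 counts in all 4 CGRP libraries, which is at least 545-fold lower against the floor of 3 counts per library (edgeR adjusted p = 0.000567). *Ms4a4b*, a membrane protein gene of T cells, fell from 342, 399.6, 412 and 309 CPM to 42.0, 89.3, 11.1 and 25.4 CPM (log2 fold change -3.36 ± 0.50, edgeR adjusted p = 0.0158). *Trbc2*, a constant segment of the T cell receptor beta chain, fell from 476, 444, 461 and 533 CPM to 240.0, 212, 251 and 222 CPM (log2 fold change -1.01 ± 0.12, edgeR adjusted p = 0.00613). The chemokine receptor gene *Cxcr3*, the adaptor gene *Sh2d1a* and the NK receptor gene *Klra9* were at 0 counts in every CGRP library, against means of 12.3, 20.2 and 16.3 CPM with IL-7, and were at least 40.7-, 67.2- and 54.2-fold lower. *Cd3g* fell by 1.06 ± 0.20 on the log2 scale, a call that was lost when any of 7 libraries was left out (edgeR adjusted p up to 0.129), and *Cxcr3*, *Sh2d1a* and *Klra9* lost theirs without 5, 1 and 3 libraries (adjusted p up to 0.107, 0.0692 and 0.0661).

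Beside these genes, the summed T cell markers were at 225 to 330 CPM with IL-7 and 82.3 to 142 CPM with CGRP, and the 5 NK cell and ILC1 markers at 4.21 to 16.8 CPM and 0 to 3.96 CPM. *Tbx21*, which defines ILC1s, was at 0 in all 8 libraries, as was *Cd8a*. The part of these cells in the fall of *Gzma*, *Ms4a4b* and the receptor genes was not tested. With IL-33 and no CGRP, *Gzma* had 0, 0, 5.11 and 0 CPM, *Sh2d1a* 0 CPM in all 4 libraries and *Klra9* at most 0.0981 CPM. *Cxcr3* had 3.14, 0, 4.07 and 4.76 CPM there. *Ms4a4b* had 3.38, 0, 0 and 0.414 CPM there, below all 4 CGRP libraries. Its log2 fold change of CGRP against IL-33 was 6.09 ± 1.34, which did not pass (edgeR adjusted p = 0.0654). Low levels of these genes were therefore not particular to the CGRP libraries.

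Other genes that fell are expressed by ILC2s or by leukocytes at large. *Tph1*, the first enzyme of serotonin synthesis, fell from 317, 311, 246 and 282 CPM to 72.9, 15.4, 42.4 and 36.8 CPM (log2 fold change -2.74 ± 0.43, edgeR adjusted p = 0.0186). The tetraspanin gene *Cd53* fell from 10074, 9517, 10053 and 10302 CPM to 3634, 3609, 3117 and 3500.3 CPM (log2 fold change -1.49 ± 0.09, edgeR adjusted p = 0.000218). The leukotriene receptor gene *Cysltr1*, named after its values were seen, fell from 669.6, 774, 647 and 752 CPM to 416, 454, 333 and 319 CPM (edgeR adjusted p = 0.0115). For each gene the groups were apart. *AW112010*, *Vmp1*, *Lilr4b*, *Esd*, *Emp3* and *1810058I24Rik* were also among the 12 lower genes of smallest p, with log2 fold changes of -1.18 to -2.21.

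**Figure D4:**
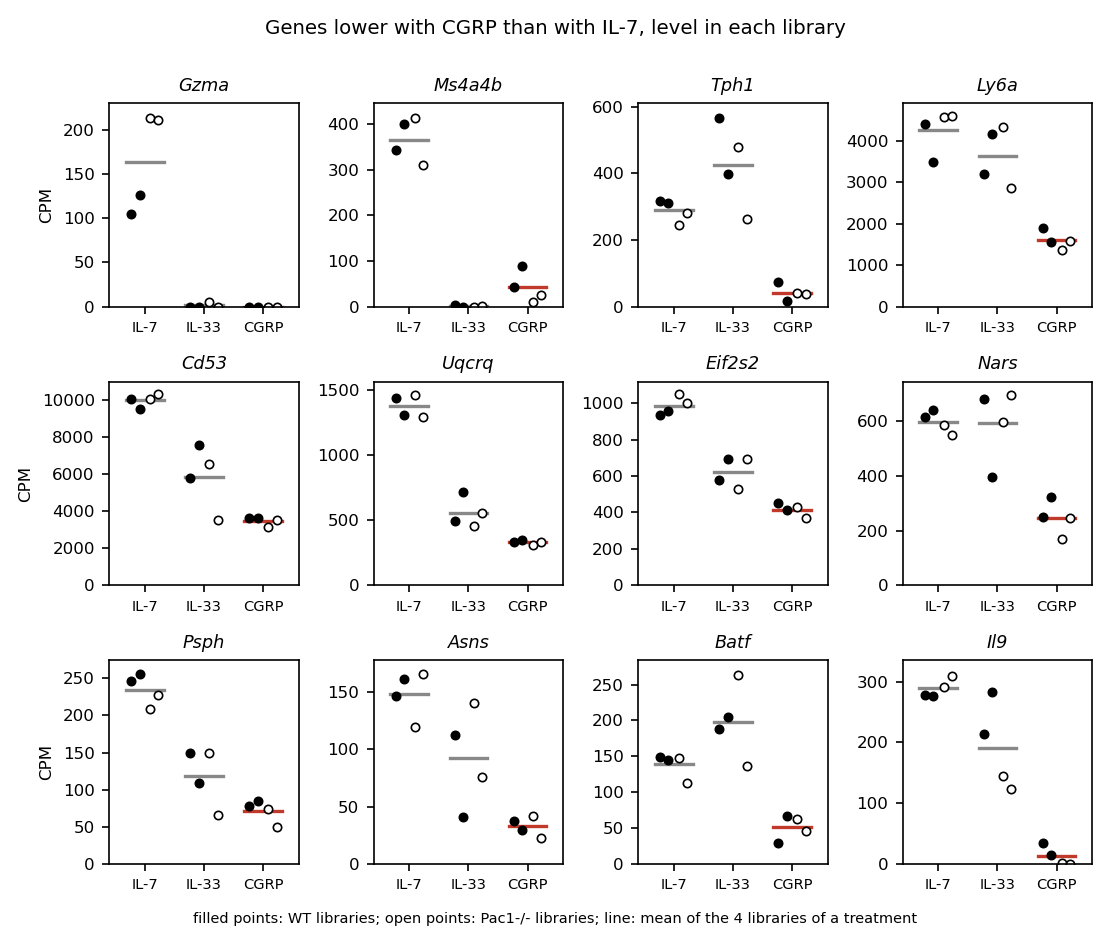
Level in CPM (vertical axis, from 0) of 12 genes lower with CGRP, in each library with IL-7, IL-33 and IL-33 plus CGRP, with WT libraries filled, *Pac1-/-* libraries open and a line at the mean of 4 libraries. All 4 CGRP libraries lie below all 4 IL-7 libraries in every panel. *Il9* is the 1 gene of the 12 that did not pass the test.

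Several genes that fell encode enzymes of amino acid synthesis. *Psph*, *Psat1* and *Phgdh* encode the serine pathway, *Asns* makes asparagine and *Aldh18a1* starts proline synthesis. Of these, *Phgdh* was tested and not called. *Asns* fell from 147, 161, 119.7 and 165 CPM to 37.8, 29.8, 42.1 and 22.4 CPM (log2 fold change -2.13 ± 0.25, edgeR adjusted p = 0.00593). *Psph* fell from 247, 256, 209 and 228 CPM to 78.4, 84.6, 73.9 and 49.1 CPM (log2 fold change -1.70 ± 0.17, edgeR adjusted p = 0.00259). *Psat1* fell from 209, 182, 236 and 244 CPM to 53.5, 53.4, 106 and 56.2 CPM (log2 fold change -1.69 ± 0.22, edgeR adjusted p = 0.00799). All 3 were apart between the groups in both genotypes. In the family of serine, asparagine and proline synthesis, chosen after values were seen, 4 of 8 genes fell and 6 of 8 had all CGRP libraries below all IL-7 libraries, with a median log2 fold change of -2.53. Among all genes tested, 0.861% fell and 6.48% had all CGRP libraries below.

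*Nars*, which loads asparagine onto its tRNA, fell from 618, 641, 586 and 551 CPM to 251, 322, 171 and 247 CPM (log2 fold change -1.26 ± 0.17, edgeR adjusted p = 0.00917). It was the only one of 20 cytosolic tRNA synthetases that was called, and the median of these was -1.10. All CGRP libraries were below all IL-7 libraries for 6 of the 20 and above them for 2, beside 6.48% and 6.03% of all genes tested. The amino acid carrier genes *Slc7a1* and *Slc1a4* also fell. *Slc7a1* went from 62.5, 70.5, 72.2 and 58.5 CPM to 17.5, 24.8, 21.04 and 21.4 CPM (edgeR adjusted p = 0.0216), and lost its call when any of the 8 libraries was left out (adjusted p up to 0.128). *Slc1a4* had a single count over the 4 CGRP libraries, a ratio of 534 with a 95% counting interval of 95.6 to 21139 that covers counting error only, and was lost when any of 7 libraries was left out (adjusted p up to 0.0834). *Aldh18a1* was lost without WT IL-7 replicate 1 (edgeR adjusted p = 0.109). Translation factors *Eif2s2*, a subunit of initiation factor eIF2, and *Eif4ebp1*, a repressor of cap-dependent initiation, fell by 1.21 ± 0.11 and 2.22 ± 0.17 on the log2 scale.

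On the list of integrated stress and ER stress genes, 15 in all and 14 tested, *Asns* and *Psat1* fell and *Ppp1r15a* rose, with a median log2 fold change of -0.72. *Ppp1r15a*, a phosphatase subunit that restores translation after stress, had 15.7, 8.59, 17.9 and 20.1 CPM with IL-7 and 72.0, 118, 221 and 112 CPM with CGRP (edgeR adjusted p = 0.00431). *Atf4*, which encodes the factor that drives amino acid enzymes, had a log2 fold change of 0.01 and an adjusted p of 1 in edgeR.

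Other families, also chosen after values were seen, held genes called in different directions. Of 81 tested cytosolic ribosomal protein genes 15 rose and 0 fell, at a median log2 fold change of 0.49, and 53 had all CGRP libraries above all IL-7 libraries. Over all genes tested, 1.22% rose and 6.03% had all CGRP libraries above. *Rpl13* had 3044, 2702, 2982 and 3331 CPM with IL-7 and 4697, 4573, 7372 and 6317 CPM with CGRP (log2 fold change 0.93 ± 0.11, edgeR adjusted p = 0.00578). Many ribosomal protein genes have near-identical pseudogenes, so their reads may be split in the counting. Of 79 tested genes of the respiratory chain and ATP synthase 7 fell and 1 (*Cox7a2l*) rose, at a median of -0.56. *Uqcrq*, a small subunit of complex III, fell from 1439, 1304, 1458 and 1287 CPM to 329.6, 344, 308 and 332 CPM (log2 fold change -2.03 ± 0.11, edgeR adjusted p = 0.000218). Of 48 tested proteasome genes 5 fell and 0 rose, at a median of -0.50. The exon length of the genes differed beside this, with a median of 2472.5 bases for the 106 protein-coding genes that fell, 3541.5 for the 130 that rose and 4617 for the 10702 tested. The part of transcript length in these families was not tested.

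Some immunoglobulin transcripts rose, in libraries whose summed B cell markers are given above. Of 268 immunoglobulin genes, 161 were at 0 in all 8 libraries and 33 were tested, and of these 5 rose and 0 fell. *Igkc*, the kappa constant region, had 32.5, 56.2, 17.4 and 17.6 CPM with IL-7 and 337, 395, 917 and 782 CPM with CGRP (log2 fold change 4.35 ± 0.55, edgeR adjusted p = 0.00758). The kappa variable segment among the 12 leading genes had 1 count over the 4 IL-7 libraries and 57.3, 71.2, 81.3 and 88.1 CPM with CGRP. *Cd74*, the invariant chain of antigen-presenting cells, had 11.6, 11.6, 10.8 and 14.7 CPM with IL-7 and 19.8, 65.0, 262 and 157 CPM with CGRP, and lost its call when any of 5 libraries was left out (edgeR adjusted p up to 0.0973). The part of B cells in these values was not tested, and reads of near-identical immunoglobulin segments are uncertain between them. Of 1385 small nuclear RNA genes, 1190 were at 0 in all 8 libraries and 40 were tested, and of these 5 rose and 0 fell. Both families were chosen after values were seen. A member near 0 with IL-7 could pass the count filter only through its CGRP level. The direction of such members follows from the filter, so these counts are no evidence of a direction. The share of counts on the mitochondrial genome was 8.60% to 10.2% with IL-7 and 8.30% to 12.6% with CGRP, and of 16 tested mitochondrially encoded genes none was called by edgeR.

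No member of the glycolysis and MYC list (22 tested, median log2 fold change 0.32), the ribosome biogenesis list (22 tested, -0.19), the apoptosis list (11 tested, -0.14), the interferon-stimulated list (5 tested) or the list of prostaglandin and leukotriene genes (6 tested, 0.68) was called by edgeR. *Myc* itself had 26.5, 11.1, 15.1 and 13.7 CPM with IL-7 and 39.9, 58.2, 57.2 and 46.0 CPM with CGRP, apart between the groups and short of the test (log2 fold change 1.63 ± 0.39, edgeR adjusted p = 0.0816). Of 67 tested cell cycle genes *Clspn*, a replication checkpoint gene, rose, from at most 0.358 CPM to between 18.0 and 20.3 CPM, and 0 fell. That is 1.49% of the list, near the 1.22% of all genes tested that rose. *Zfp36*, which encodes an mRNA decay factor that destabilizes cytokine transcripts, was the single called gene of 7 in its list, at 16.3, 13.2, 19.6 and 6.40 CPM with IL-7 and 66.6, 95.9, 94.1 and 82.2 CPM with CGRP (edgeR adjusted p = 0.0164).

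The 4 libraries with IL-33 and no CGRP show where the same genes stood with IL-33 as the single added agent. This second comparison shares the 4 IL-7 libraries with the first, so the values are set side by side only. IL-33 alone against IL-7 gave 0 genes higher and 6 lower among 12980 tested in edgeR (0.0462%), with 1361 genes at an unadjusted p under 0.05, and DESeq2 called 173 higher and 250 lower. The 6 were *Cd3d*, *Klrc1*, *Klrd1*, *Klrk1*, *Ms4a4b* and *Klra9*. *Junb* had 26.2, 34.1, 33.9 and 93.5 CPM with IL-33, *Areg* 109.7, 107, 150.2 and 165 CPM and *Il2* 6.36, 2.16, 3.17 and 2.90 CPM. For these 3 genes all 4 IL-33 libraries were below all 4 CGRP libraries. Of the 161 genes that rose over the basal level, the direct comparison of CGRP with IL-33, which called 1.75% of 13160 genes in all (1.53% higher and 0.213% lower), called 105 higher. Of the 161, 152 could be fitted in IL-33 against IL-7, with a median log2 fold change of 0.02 there. Of the 114 that fell, the direct comparison called 9 lower. The median log2 fold change of these 114 was -0.62 in IL-33 against IL-7 and, where fitted, -0.63 in CGRP against IL-33. Both sets of genes were chosen on the 4 IL-7 and 4 CGRP libraries, and the direct comparison uses the same 4 CGRP libraries again. The choice therefore favors such counts and medians, and they are no independent support. *Eif4ebp1* stood at 606, 559, 648 and 639 CPM with IL-7, at 265, 252, 375 and 205 CPM with IL-33 and at 115, 161, 139 and 101 CPM with CGRP. *Tph1* stood at 566, 399, 478 and 263 CPM with IL-33, and the direct comparison called it lower with CGRP (log2 fold change -3.07, edgeR adjusted p = 0.0179).

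**Figure D5:**
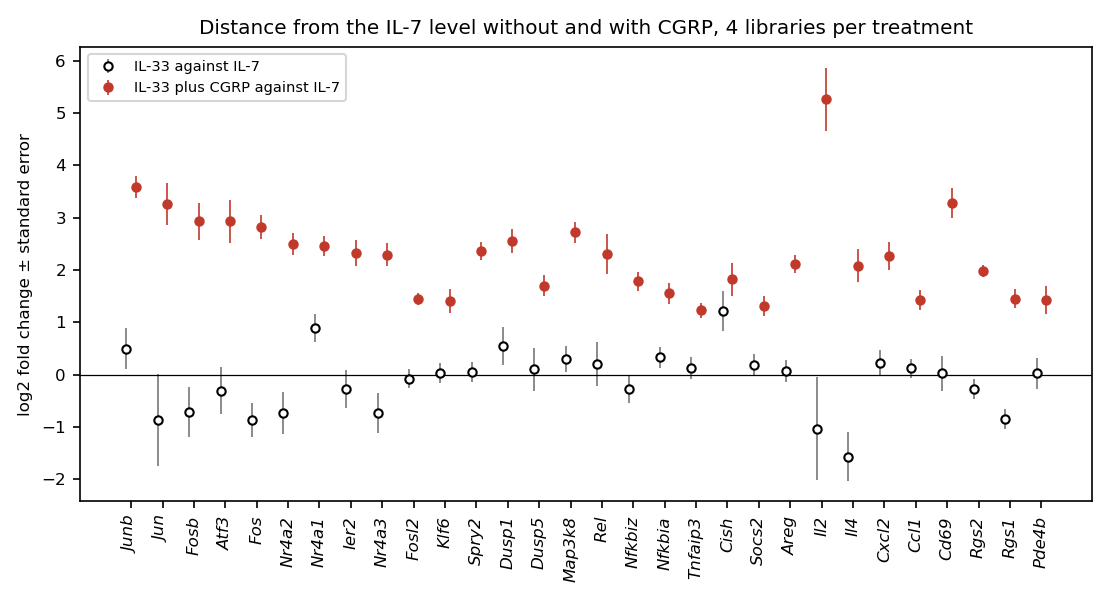
Log2 fold change with its standard error (vertical axis) for 30 genes called higher, for IL-33 against IL-7 (open points) and IL-33 plus CGRP against IL-7 (filled red points). Both comparisons use the same 4 IL-7 libraries. *Junb* stands at 0.50 ± 0.39 without and at 3.58 ± 0.21 with CGRP.

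Both genotypes entered every value above, and the distance from the basal state was not called as different between them for any gene in edgeR. The interaction of genotype with treatment gave 0 genes in either direction among 13240 in edgeR, with 847 at an unadjusted p under 0.05, while DESeq2 called 102 and 92. Fitted alone, with 2 libraries against 2, the WT libraries gave 0 calls and the *Pac1-/-* libraries 9 higher and 3 lower. With all 4 IL-7 libraries kept in the fit, the 2 WT CGRP libraries gave 14 higher and 6 lower and the 2 *Pac1-/-* CGRP libraries 71 and 48. Genotype stayed a covariate, so each pair of CGRP libraries was compared with the 2 IL-7 libraries of its own genotype. The IL-7 libraries of the other genotype added to the estimate of spread, not to the fold change. *Rgs2* had a log2 fold change of 1.78 in WT and 2.17 in *Pac1-/-* libraries, *Areg* 2.15 and 2.08, and *Cd69* 2.64 and 3.90.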

How the data were processed

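RNA was measured by bulk mRNA-Seq in sorted lung ILC2s after culture. Per the study's methods, the authors amplified full-length cDNA, sequenced paired ends and used HISAT2 for alignment against mm10, and the deposited values are raw counts per Ensembl gene. The counting tool, its annotation and its use of strand are not given in the sources used here, so overlapping and antisense genes cannot be told apart. Doses, time and ages come from the study's methods, and groups from the sample labels.

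From these counts, genes passing edgeR's filterByExpr over the genotype and treatment groups were scaled by TMM and fitted with edgeR 4.0.16 (R 4.3.3) by the quasi-likelihood test with genotype as covariate. Genes with a fold above 1.5 and a Benjamini-Hochberg adjusted p under 0.05 over all genes tested were called. Fold changes are the log2 values of edgeR's fit at its default setting, and each SE is the fold change divided by the square root of its F value. A prior count of 2 entered only the log2 levels used to correlate libraries. DESeq2 1.42.0, other scalings, filters and designs and the omission of each library were alternatives. CPM values divide counts by the library total. Exact two-sided permutation tests of 4 against 4 libraries cannot go below p = 0.0286. Floors of 3 counts per library and 95% intervals cover counting error only.

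On simulated counts for 13240 genes in this comparison, edgeR recovered 1% of genes changed 2-fold and 20.2% of those changed 4-fold, with 0% of its calls among unchanged genes. DESeq2 recovered 21% and 49.5%, with 58.3% of its calls among unchanged genes. The counts were drawn once, with the spread of each gene as edgeR estimated it, and only genes above a set mean count were changed. These rates describe that setting, may favor edgeR and were not measured on the real counts.

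Genes named were the 12 of smallest p in each direction with groups that did not overlap, called members of the gene lists (at most 6 a list) with members given as not called, and genes the study names for CGRP. Others are said to be chosen after their values were seen. The comparison and the lists were chosen with earlier results of these data known. Of 51912 gene IDs, 51719 matched GENCODE M21, which gave symbols and coordinates on GRCm38, the assembly also called mm10. Promoter windows came from RefSeq. The cell cycle list came from Seurat 5.3.0.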

Additional observations from a re-analysis of the deposited data

Results flagged for a closer look

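Among 226 groups of 4 libraries (each named gene in the IL-7 and in the CGRP group), 12 held 1 library that stood apart from the other 3 by Dixon's gap ratio on log2(CPM + 1), above its 95% critical value. Chance gives such a gap in about 1 in 20 groups.

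Among the genes that rose, *Tiparp* was low in WT CGRP replicate 2 (503 CPM against 790 to 857 CPM, ratio 0.846). *Tnfaip3* was low in WT CGRP replicate 1 (516 against 693 to 723 CPM, ratio 0.873), and so was *Spry1* (13.1 against 39.3 to 43.6 CPM, ratio 0.912). In the IL-7 group, WT replicate 1 was low for *Spry2* (84.9 against 108 to 113 CPM, ratio 0.834) and for *Fosl2* (189 against 247 to 252 CPM, ratio 0.929). The immunoglobulin kappa variable segment that rose had its 1 basal count in *Pac1-/-* IL-7 replicate 1 (0.0836 against 0 CPM, ratio 1).

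Among the genes that fell, *Ly6a* was low in WT IL-7 replicate 2 (3481 against 4406 to 4609 CPM, ratio 0.840) and *Batf* in *Pac1-/-* IL-7 replicate 2 (113 against 144 to 149 CPM, ratio 0.886). *Psat1* was high in *Pac1-/-* CGRP replicate 1 (106 against 53.4 to 56.2 CPM, ratio 0.928). *Slc1a4* had 1 count in *Pac1-/-* CGRP replicate 2 (0.120 CPM, ratio 1) and *Cd163l1* 1 count in WT CGRP replicate 2 (0.103 CPM, ratio 1), with 0 in the other CGRP libraries. *Pik3cg*, which was not called, was low in *Pac1-/-* CGRP replicate 1 (10.96 against 19.7 to 22.1 CPM, ratio 0.833).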

How the results depend on the processing

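The number of calls for CGRP against IL-7 depended on the settings. DESeq2 called 608 higher and 509 lower, including 159 of the 161 and all 114, and no filter on low counts gave 374 and 343. The WT libraries alone gave 0 and 0 and the *Pac1-/-* libraries alone 9 and 3. In fits that kept all IL-7 libraries and the genotype covariate, WT CGRP gave 14 and 6 and *Pac1-/-* CGRP 71 and 48. Each of these fits compares CGRP with IL-7 within 1 genotype, and both were chosen after seeing the data. Leaving out 1 library gave 106 to 159 higher and 57 to 139 lower.

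IL-33 against IL-7 gave 173 higher and 250 lower in DESeq2, 82 and 119 with no filter and 2 lower with all 16 libraries in 1 fit, and 0 to 4 higher and 12 to 33 lower without 1 library. CGRP against IL-33 gave 202 and 28, with 690 and 393 in DESeq2, 413 and 226 with no filter, 123 lower with all 16 libraries, and 124 to 212 and 9 to 55 without 1 library. The interaction gave 102 and 92 in DESeq2, 43 and 35 with no filter, 1 lower with all 16 libraries, and 0 to 1 in each direction without 1 library. The cause was not tested.

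Replicate numbers did not pair the libraries (correlation of deviations -0.0045 in WT and -0.0017 in *Pac1-/-*). With the number as a replicate block, CGRP against IL-7 gave 120 and 76 and CGRP against IL-33 16 lower. With the block within genotype the counts were 63 and 34 for CGRP against IL-7, 0 lower for IL-33 against IL-7, and 76 and 4 for CGRP against IL-33.

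Genes that changed sign were not called. Values follow for *Pac1-/-* libraries alone and for the fit of *Pac1-/-* CGRP that kept all IL-7 libraries. The log2 fold changes of *Calca* were -0.30 and -0.26, those of *Gpr65* -0.051 and -0.013, of *Tnfrsf9* -0.37 and -0.33, of *Il6* 0.0016 and 0.043 and of *Gata3* -0.11 and -0.067. Without 1 library *Calca* ran from -0.070 to 0.12 and *Tnfrsf9* from -0.0031 to 0.33.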
